A study of Mus musculus with 19 samples.

Results

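The p53 pathway and the CDK inhibitor families were followed through 10 genes in neoplastic cells of autochthonous mouse lung tumors: *Trp53*, *Mdm2*, *Ccng1*, *Phlda3*, *Bbc3*, *Cdkn1a*, *Cdkn1b*, *Cdkn1c*, *Cdkn2a* and *Cdkn2b*. They were chosen by name, with earlier results of these data known, as 10 of the 53558 genes in the deposited tables. The shares of members that passed, given below beside those of all genes, are therefore not independent of these data. All 10 had enough counts over all libraries to enter the test, *Phlda3* through the sgInert and sgLkb1 libraries only. Tumors were initiated in mice (C57BL/6J and 129 mixed background, 6 to 12 weeks old at initiation) that in all groups carried the Cre-dependent alleles R26 LSL-tdTomato and H11 LSL-Cas9 and no engineered *Trp53* allele. The animals received 1 of 3 lentiviral vectors. Lenti-sgNeo1/sgNT1/sgNeo2/Cre (sgInert, 7 libraries) carries control sgRNAs. The vector of the 7 sgCebpa/b/d libraries, Lenti-sgCebpa/sgCebpb/sgCebpd/Cre, carries sgRNAs to the 3 C/ebp genes, and Lenti-sgLkb1/Cre (sgLkb1, 5 libraries) carries an sgRNA to *Lkb1* (gene symbol *Stk11*). After 17 weeks tumors were microdissected, dissociated and sorted against dead cells and against cells stained for CD45, CD31, F4/80 or Ter119, and total RNA was sequenced. In the study's other sequencing of sorted neoplastic cells these were tdTomato-positive, which its main text does not restate for these libraries. Cas9 leaves a mixture of insertions and deletions in the targeted cells, so that a group is a population of edited cells and not a clone with 1 defined null allele.

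The p53 protein is a transcription factor that stress signals stabilize. *Mdm2* is one of its targets and encodes the ubiquitin ligase that degrades p53, which closes a feedback loop. *Cdkn1a*, encoding p21, is the target best known for arresting the cell cycle, and *Cdkn1a*, *Cdkn1b* and *Cdkn1c* together form the Cip/Kip family, whose proteins bind cyclin–CDK complexes. *Cdkn2a* and *Cdkn2b* encode the INK4 inhibitors of CDK4 and CDK6, and *Cdkn2a* also encodes ARF, which restrains MDM2.

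Expected counts, which are the authors' RSEM estimates of the reads per gene, summed to between 2760722 and 9944131 per library after rounding. *Stk11* had 4.31 to 4.53 log2 CPM (counts relative to the library size, on a log2 scale and with a prior count of 2) in the sgInert libraries and 3.26, 2.97, 2.98, 3.68 and 3.11 in sgLkb1 replicates 1 to 5, all lower. *Cebpa* was not lower but higher in sgCebpa/b/d than in sgInert libraries, by 0.73 on the log2 scale (edgeR adjusted p = 0.00148), and *Cebpb* and *Cebpd* had log2 fold changes of 1.16 and 0.20 that did not pass, which neither checks nor contradicts their labels, since indels need not lower a transcript. The library titles hold a ZR number in 4 sgInert libraries, an MT number in the other 3 sgInert libraries, in 4 of sgCebpa/b/d and in 3 of sgLkb1, and no number in the remaining 3 and 2 libraries of those groups. In each group the MT-numbered libraries carry only 2 different numbers, so that some may share an animal and p-values measure the spread between libraries. All 5 sgLkb1 libraries, 4 of 7 sgCebpa/b/d libraries (the MT-numbered ones, while the unnumbered 3 are male) and 3 of 7 sgInert libraries came from females. Markers of alveolar type II cells, the cell type these tumors resemble, summed to 45562 to 56430 CPM in sgInert and 27413 to 36042 CPM in sgLkb1 libraries. In sgCebpa/b/d they summed to 43656 to 49022 CPM in the MT-numbered and 26218 to 34447 CPM in the unnumbered libraries. Markers of endothelial cells summed to 9.08 to 46.0 CPM in sgInert libraries, to 13.0 to 47.3 CPM in the MT-numbered and 170 to 246 CPM in the unnumbered libraries of sgCebpa/b/d, and to 44.6 to 86.0 CPM and 97.8 to 187 CPM in the same 2 kinds of sgLkb1 libraries. Markers of immune cells reached at most 17.9 CPM in numbered and 23.6 to 62.4 CPM in unnumbered libraries. The unnumbered libraries therefore stand apart, and the calls of the 10 genes are also given without them or among MT-numbered libraries where that changed them.

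Levels of different genes were compared in TPM, which take transcript length and library size into account. *Ccng1*, encoding cyclin G1, was the most abundant of the 10 (median 198 TPM over the 19 libraries, range 93.4 to 299), followed by *Cdkn1a* (119 TPM, 67.7 to 293) and *Mdm2* (93.5 TPM, 65.9 to 148). These 3 p53 targets lay well above *Cdkn1b* (22.1 TPM), *Cdkn2b* (19.8 TPM), *Cdkn1c* (17.6 TPM) and *Trp53* itself (12.8 TPM). *Bbc3* (3.22 TPM), *Phlda3* (3.21 TPM) and *Cdkn2a* (2.68 TPM) were lowest, with at most 45 counts in a library. *Ccng1* exceeded *Cdkn1a* in 18 of 19 libraries, *Mdm2* exceeded *Cdkn1b* in 19 and *Trp53* exceeded *Bbc3* in 19. The order among *Cdkn1b*, *Cdkn2b*, *Cdkn1c* and *Trp53* held in 11 to 12 of 19 libraries for each neighbouring pair. That among *Bbc3*, *Phlda3* and *Cdkn2a* held in 10, so these neighbours are not ranked over all 19 libraries. *Cdkn1b* exceeded *Cdkn2b* in every sgCebpa/b/d library (medians 22.86 and 15.63 TPM) and in no sgLkb1 library (20.80 and 29.37 TPM), while sgInert libraries were mixed. *Cdkn1c* exceeded *Trp53* in every sgLkb1 library (medians 31.85 and 16.21 TPM). Its median was 17.57 against 15.18 TPM in sgCebpa/b/d and 9.27 against 10.99 TPM in sgInert libraries, both mixed.

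**Figure D1:**
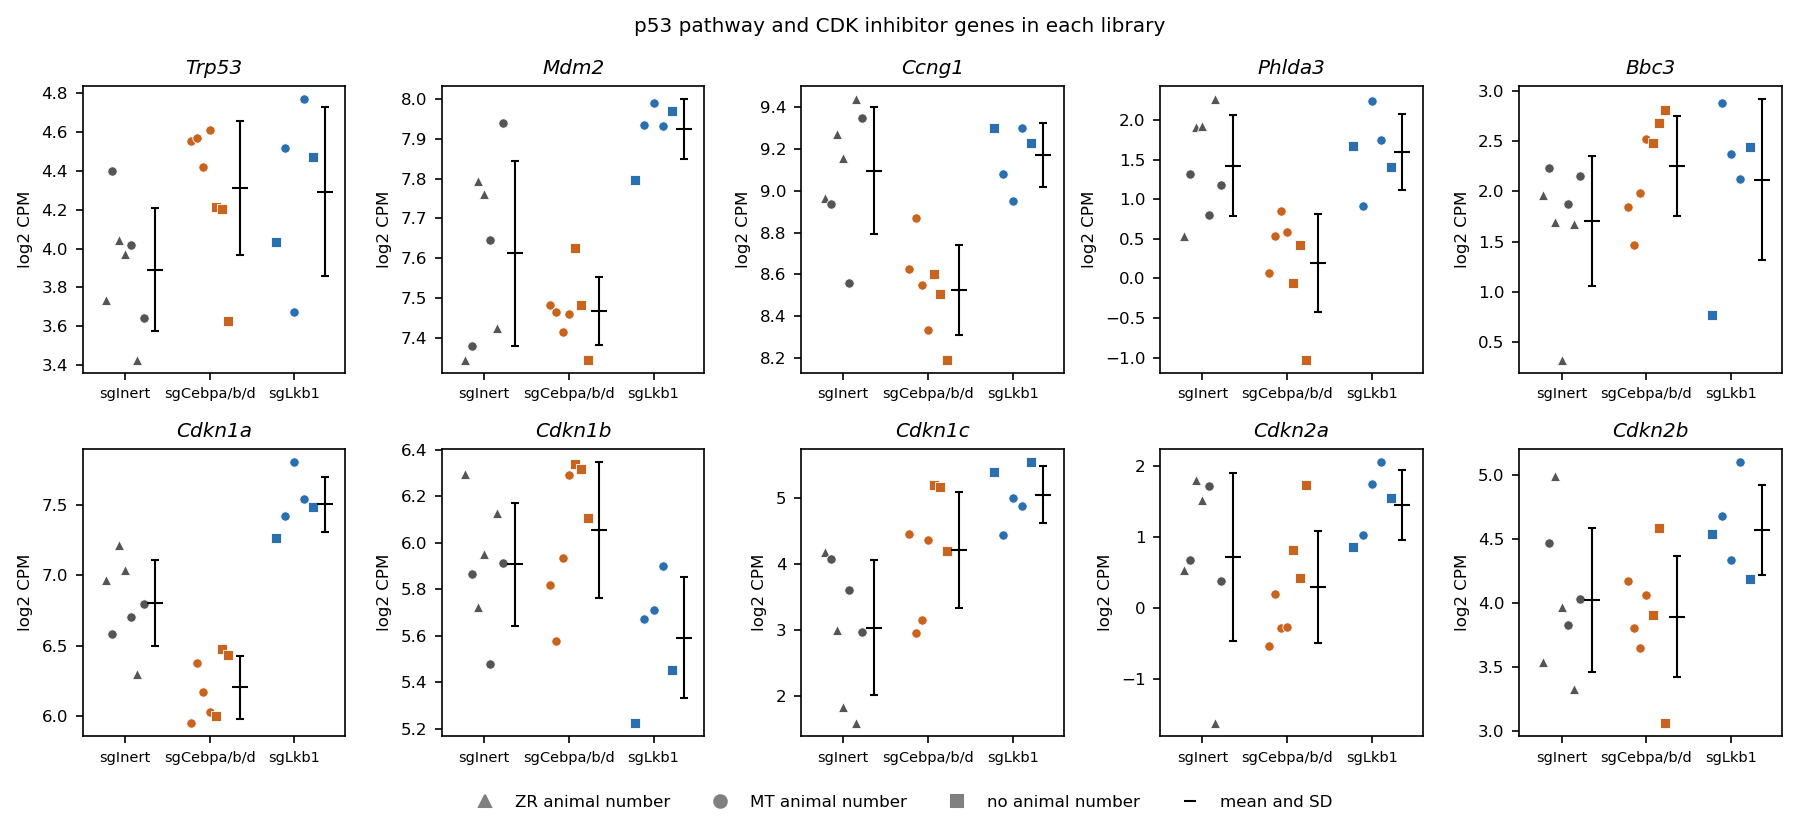
Log2 CPM of the 10 genes in each of the 19 libraries, by virus group, with 1 point per library, its shape giving the title series, and the mean with its SD beside the points (the vertical scales differ between genes). *Cdkn1a* is separate in all 5 sgLkb1 libraries (7.26 to 7.80), and the sgCebpa/b/d libraries (5.95 to 6.48) sit at the lower end of or below the sgInert libraries (6.30 to 7.22).

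*Cdkn1a* and *Ccng1* share a sequence feature. Both were included as p53 pathway genes, so a p53 site near their starts is not independent of the choice. The p53 response element consensus, a pair of decamers with an invariant C and G in each, was searched for in windows of the 250 bases before a RefSeq transcript start (GRCm38.p6). The search was set to allow up to 3 bases between the decamers, and wider spacers were not searched. It was run on the sense strand, and since the consensus is its own reverse complement this covers both strands. A match with at most 1 mismatch of 20 letters was found in 56 of 32851 windows of all genes (0.17%). Members are given by their best window, whereas the share counts every window. Of the 9 members with a window (13 windows), *Cdkn1a* (6 mismatches in its second window) and *Ccng1* held such a match. *Bbc3*, *Trp53* and *Cdkn1b* held one with 3 mismatches, a degree reached by 4.71% of all windows, *Mdm2* and *Cdkn2a* one with 4, *Phlda3* with 5 and *Cdkn2b* with 8. The windows of *Cdkn1a* and *Ccng1*, which hold the closest matches, are printed with that of *Bbc3*, which holds a weaker one, in lower case with the match in capitals and in the direction of transcription.
Cdkn1a, chr17:29090729-29090978 (+): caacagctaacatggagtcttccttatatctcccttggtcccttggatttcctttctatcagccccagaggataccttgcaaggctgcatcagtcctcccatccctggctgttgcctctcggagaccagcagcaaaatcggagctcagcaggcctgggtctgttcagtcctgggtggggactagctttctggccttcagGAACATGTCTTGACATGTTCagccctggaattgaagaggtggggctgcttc
Ccng1, chr11:40755287-40755536 (-): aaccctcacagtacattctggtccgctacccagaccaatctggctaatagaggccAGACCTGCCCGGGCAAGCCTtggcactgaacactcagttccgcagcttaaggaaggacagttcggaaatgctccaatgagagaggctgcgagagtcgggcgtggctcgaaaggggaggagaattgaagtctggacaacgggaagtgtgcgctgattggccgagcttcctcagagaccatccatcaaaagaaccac
Bbc3, chr7:16309333-16309582 (+): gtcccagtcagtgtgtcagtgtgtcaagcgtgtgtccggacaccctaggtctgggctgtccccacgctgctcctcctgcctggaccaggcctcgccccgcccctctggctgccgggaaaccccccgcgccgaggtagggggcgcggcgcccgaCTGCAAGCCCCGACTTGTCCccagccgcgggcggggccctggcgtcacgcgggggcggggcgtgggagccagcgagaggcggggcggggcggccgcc
The *Cdkn1a* match lay 51 to 32 bases before the start of the more upstream of its 2 RefSeq starts, the *Ccng1* match 195 to 176 bases and the *Bbc3* match 97 to 78 bases before theirs. In the GENCODE M21 annotation 3 bases at the end of the *Cdkn1a* window and 25 at the end of the *Ccng1* window belong to a first exon, while the *Bbc3* window lies in an intron of a longer transcript. The sequence TTGCNNAA, a general form of a C/EBP site, occurred in 0 of the 13 member windows and in 9.56% of all windows on either strand. These are descriptions of sequence, and no binding was measured here.

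The comparison of sgCebpa/b/d with sgInert asks which genes differ when the 3 C/ebp genes are targeted. *Ccng1*, *Cdkn1a* and *Phlda3* fell, and no member rose. These were 3 of 10 members at an edgeR adjusted p under 0.05 over all 13986 genes tested, where 10.1% of all genes passed and 5.36% passed as lower. The median log2 fold change of the members was -0.16, against 0.02 for all genes, and only *Phlda3* changed by more than 1 on the log2 scale, where 4.65% of all genes did so and passed. The share of all genes passing as higher was 4.73%. The groups overlapped for all 10 members, while they did not for 2.09% of all genes with sgCebpa/b/d lower and 1.28% with sgCebpa/b/d higher.

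*Cdkn1a* (chromosome 17 of GRCm38, 29090976 to 29100727, plus strand) had a lowest, median and highest level of 6.30, 6.79 and 7.22 log2 CPM in sgInert libraries against 5.95, 6.17 and 6.48 with sgCebpa/b/d. All 7 sgCebpa/b/d libraries lay below the sgInert median and 4 below every sgInert library. The log2 fold change was -0.61 (SE, standard error, 0.13, with edgeR adjusted p = 0.00340), or 0.657-fold. Among MT-numbered libraries it was -0.56 (edgeR adjusted p = 0.0151) and without the unnumbered libraries -0.68 (edgeR adjusted p = 0.0133). With the title series as a covariate it was -0.48 and no longer passed (edgeR adjusted p = 0.120). *Cdkn1a* overlaps an opposite-strand gene model, AC167363.2, over 1046 bases, and the reads of the pair could be shared, since the strand setting of the counting was not given in the sources used here.

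*Ccng1* (chromosome 11, 40748552 to 40755311, minus strand) had 8.56, 9.16 and 9.44 log2 CPM as lowest, median and highest in sgInert libraries and 8.19, 8.55 and 8.87 in sgCebpa/b/d libraries. All 7 were below the sgInert median and 4 below every sgInert library. The log2 fold change was -0.58 (SE 0.12 and edgeR adjusted p = 0.00273), or 0.667-fold. The fall was smaller among MT-numbered libraries (-0.39, edgeR adjusted p = 0.187) and missed the threshold without the unnumbered libraries (-0.51, edgeR adjusted p = 0.0510) and with the title series as a covariate (-0.43, edgeR adjusted p = 0.124). The part of the title series in this difference was not tested.

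*Phlda3* (chromosome 1, 135766119 to 135769136, plus strand), a p53 target whose protein inhibits AKT, had few reads, with 6 to 25 counts in sgInert and 1 to 11 in sgCebpa/b/d libraries. Its lowest, median and highest levels were 0.54, 1.33 and 2.27 log2 CPM in sgInert and -1.03, 0.42 and 0.85 in sgCebpa/b/d libraries. All 7 sgCebpa/b/d libraries were below the sgInert median and 5 below every sgInert library. The log2 fold change was -1.47 (SE 0.44 and edgeR adjusted p = 0.0360). No sgCebpa/b/d library exceeded 1.48 CPM, and *Phlda3* entered the test through the sgInert and sgLkb1 libraries, where it was higher. The call as lower is therefore not independent of the count filter. In the fit of sgCebpa/b/d and sgInert alone the filter removed *Phlda3*. The call was kept in 4 of 11 alternatives, with -0.67 (edgeR adjusted p = 0.595) among MT-numbered libraries and -1.14 (edgeR adjusted p = 0.237) without the unnumbered ones. Leaving out any one of 7 libraries (sgInert replicate 3, 4 or 6, or sgCebpa/b/d replicate 1, 5, 6 or 7) also ended the call, with adjusted p reaching 0.0779.

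The other p53 pathway members did not pass. *Mdm2* (chromosome 10, 117688875 to 117710758, minus strand) ranged from 7.34 to 7.94 log2 CPM in sgInert and from 7.34 to 7.62 in sgCebpa/b/d libraries, with a log2 fold change of -0.16 (95% confidence interval -0.35 to 0.03). *Trp53* (chromosome 11, 69580359 to 69591873, plus strand) ranged from 3.43 to 4.40 and from 3.63 to 4.61 log2 CPM, with a log2 fold change of 0.43 (95% confidence interval 0.03 to 0.83, edgeR adjusted p = 0.180). *Bbc3* (chromosome 7, 16308393 to 16318205, plus strand), encoding the pro-apoptotic BH3-only protein PUMA, ranged from 0.33 to 2.23 and from 1.47 to 2.81 log2 CPM, with a log2 fold change of 0.56 (95% confidence interval -0.18 to 1.30). The ranges of the groups overlapped for all 3, although 4 of 7 sgCebpa/b/d libraries lay above every sgInert library for *Trp53* and 4 of 7 for *Bbc3*.

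Among the CDK inhibitors other than *Cdkn1a*, none passed in edgeR. *Cdkn1c* (chromosome 7, 143458339 to 143461050, minus strand), an imprinted gene encoding p57, ranged from 1.60 to 4.19 log2 CPM in sgInert and from 2.96 to 5.21 in sgCebpa/b/d libraries, where the 3 unnumbered libraries had 5.21, 5.17 and 4.20. Its log2 fold change was 1.12 (SE 0.40 and edgeR adjusted p = 0.0794), and 0.21 (edgeR adjusted p = 0.821) among MT-numbered libraries. It passed in DESeq2 (log2 fold change 1.14, adjusted p = 0.0361). *Cdkn1b* (chromosome 6, 134920401 to 134925513, plus strand), encoding p27, had a log2 fold change of 0.15 (95% confidence interval -0.14 to 0.45). *Cdkn2b* (chromosome 4, 89306299 to 89311039, minus strand) had -0.17 (95% confidence interval -0.69 to 0.35) and its neighbor *Cdkn2a* (chromosome 4, 89274471 to 89294653, minus strand) -0.62 (95% confidence interval -1.86 to 0.62). The wide interval of *Cdkn2a* goes with 0 to 23 counts in sgInert and 1 to 18 in sgCebpa/b/d libraries.

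The comparison of sgLkb1 with sgInert uses the same 7 control libraries. Here *Cdkn1a* and *Cdkn1c*, both of the Cip/Kip family, rose and no member fell. These were 2 of 10 members, where 5.78% of all genes passed and 2.81% passed as higher. The median log2 fold change was 0.46 over the members and -0.01 over all genes, and 9 of 10 members had a positive value. *Cdkn1a* and *Cdkn1c* were also the 2 members whose groups did not overlap, which 2.15% of all genes showed in that direction and 2.0% in the other. *Cdkn1c* alone changed by more than 1 on the log2 scale, where 3.01% of all genes did so and passed, and 2.97% of all genes passed as lower.

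*Cdkn1a* had 7.26, 7.42, 7.80, 7.54 and 7.48 log2 CPM in sgLkb1 replicates 1 to 5, against 6.30 to 7.22 in sgInert libraries. All 5 were above every sgInert library, the closest by a narrow margin. The log2 fold change was 0.69 (SE 0.14 and edgeR adjusted p = 0.00395), or 1.61-fold. It was 0.89 (edgeR adjusted p = 0.00110) among MT-numbered libraries and passed in all 12 alternatives (0.63 to 0.94).

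*Cdkn1c* had 5.40, 4.45, 5.00, 4.89 and 5.54 log2 CPM in sgLkb1 replicates 1 to 5, against a lowest, median and highest of 1.60, 3.00 and 4.19 in sgInert libraries. All 5 were above every sgInert library, and the unnumbered replicates 1 and 5 were highest. The log2 fold change was 1.81 (SE 0.42 and edgeR adjusted p = 0.0114), or 3.50-fold. It was 1.18 (edgeR adjusted p = 0.0939) among MT-numbered libraries, 1.50 (edgeR adjusted p = 0.0860) without the unnumbered ones and 1.09 (edgeR adjusted p = 0.249) with the title series as a covariate. All 6 endothelial and 7 fibroblast markers had positive log2 fold changes against sgInert in both comparisons (endothelial medians 2.08 in sgCebpa/b/d and 1.83 in sgLkb1, fibroblast medians 1.47 and 1.70). None of these markers was at 0 throughout a group. Of the endothelial markers 4 passed in sgCebpa/b/d and 0 in sgLkb1, and of the fibroblast markers 2 passed in each (10.1% and 5.78% of all genes). Summed endothelial markers were 13.0 to 47.3 CPM in MT-numbered sgCebpa/b/d and 24.0 to 46.0 CPM in MT-numbered sgInert libraries. The higher endothelial sums in sgCebpa/b/d were those of its unnumbered libraries (170 to 246 CPM). After centering on the group means, Pearson correlations of *Cdkn1c* with summed markers were taken over the 19 libraries, which share title series. They were 0.38 for endothelial, -0.29 for fibroblast and 0.44 for immune markers. The part of these cell types in the *Cdkn1c* difference was not tested, and in sorted bulk RNA more cells of a type and more RNA per cell cannot be told apart. An antisense gene, Gm44732, overlaps *Cdkn1c* over 892 bases and may share its reads.

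**Figure D2:**
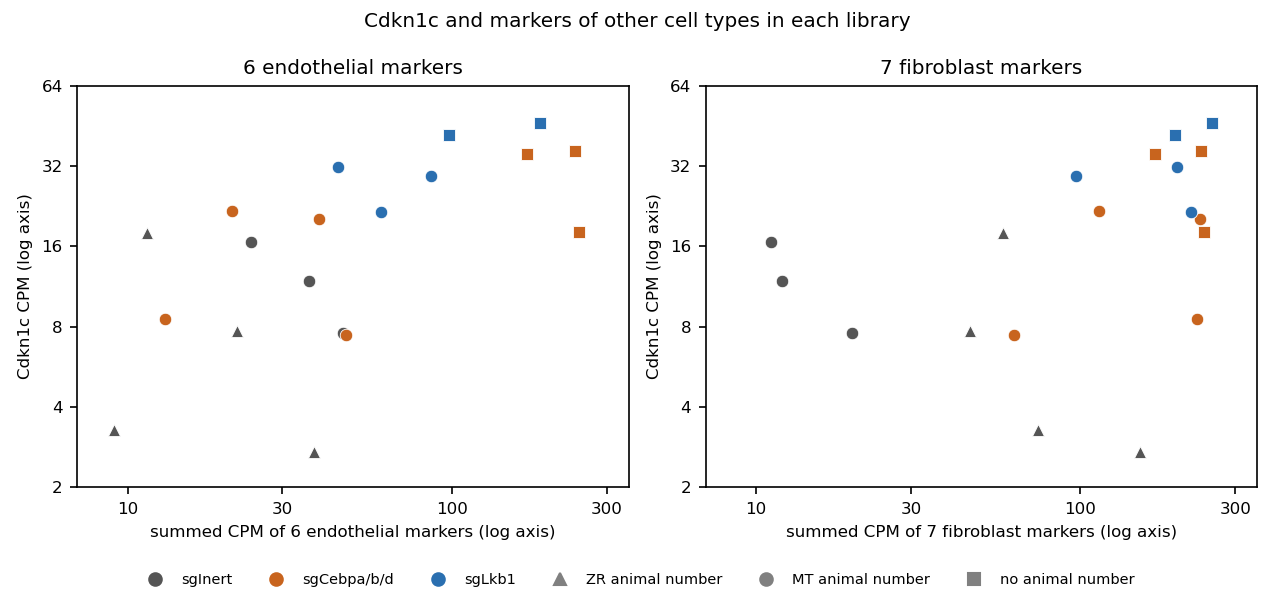
*Cdkn1c* in CPM (vertical log axis) against the summed CPM of 6 endothelial markers (left) and 7 fibroblast markers (right, horizontal log axes), with 1 point per library colored by virus group and shaped by title series. The unnumbered libraries (squares) have the most endothelial signal, at 97.8 to 246 CPM, and 4 of these 5 have the highest *Cdkn1c* of all 19 libraries.

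The p53 pathway members other than *Cdkn1a* did not pass in sgLkb1 in the fit of all libraries, and the intervals of *Phlda3* and *Bbc3* were wide. *Mdm2* had 7.80, 7.93, 7.99, 7.93 and 7.97 log2 CPM in replicates 1 to 5, above the sgInert median of 7.65 in all 5 and above every sgInert library in 2. Its log2 fold change was 0.30 (SE 0.10 and edgeR adjusted p = 0.0796), and it passed in 3 of 12 alternatives, among them DESeq2 (0.31, adjusted p = 0.0376). *Ccng1* had 9.30, 9.08, 8.95, 9.30 and 9.23 log2 CPM, within the sgInert range, and a log2 fold change of 0.06 (95% confidence interval -0.22 to 0.33). *Phlda3* had 1.68, 0.92, 2.24, 1.75 and 1.41 log2 CPM and a log2 fold change of 0.14 (95% confidence interval -0.80 to 1.09). *Trp53* had 4.03, 4.52, 3.67, 4.77 and 4.47 log2 CPM and a log2 fold change of 0.43 (95% confidence interval -0.00 to 0.86, edgeR adjusted p = 0.277), nearly the value it had in sgCebpa/b/d libraries. *Bbc3* had 0.77, 2.88, 2.37, 2.12 and 2.44 log2 CPM and a log2 fold change of 0.49 (95% confidence interval -0.31 to 1.29).

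Neither of the INK4 genes passed, although both had positive values in sgLkb1. *Cdkn2b* had 4.54, 4.68, 4.34, 5.10 and 4.19 log2 CPM, all above the sgInert median of 3.97, and a log2 fold change of 0.50 (95% confidence interval -0.06 to 1.06, edgeR adjusted p = 0.335). *Cdkn2a* had 13, 11, 20, 39 and 18 counts in replicates 1 to 5, and 6, 7, 12, 11, 23, 0 and 4 counts in sgInert replicates 1 to 7. Its log2 fold change was 0.56 (95% confidence interval -0.73 to 1.85). *Cdkn1b* was the member with a negative value, at -0.32 (95% confidence interval -0.65 to 0.01, edgeR adjusted p = 0.280), with 5.22, 5.67, 5.71, 5.90 and 5.45 log2 CPM.

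*Cdkn2a* has a pair of transcripts in the annotation the files use. The shorter (852 bases) starts at 89282192, at the first exon of INK4A, and the longer (895 bases) starts at 89294653, at the upstream first exon of ARF. The average transcript length that RSEM reports for the gene places 64.7% to 100% of the estimate (median 94.2%) on the shorter transcript in the 18 libraries with any *Cdkn2a* count, and all of it in 8. With at most 39 counts, shared between transcripts that have their later exons in common, this split is a description only.

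The direct comparison of sgCebpa/b/d with sgLkb1 tests whether the pair of effects against sgInert differ, without the shared controls. *Cdkn1a*, *Ccng1*, *Mdm2* and *Phlda3* were lower with sgCebpa/b/d and no member was higher. These 4 of 10 members stand against 5.96% of all genes that passed and 3.12% that passed as lower. In all 4 the groups did not overlap, which 2.87% of all genes showed in that direction and 2.22% in the other. *Cdkn1a* and *Phlda3* differed by more than 1 on the log2 scale (2.8% of all genes), and 2.83% of all genes passed as higher. The median log2 fold change was -0.65 over the members and 0.03 over all genes.

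*Cdkn1a*, at 5.95 to 6.48 against 7.26 to 7.80 log2 CPM, had the smallest p of the 10, with a log2 fold change of -1.30 (SE 0.14 and edgeR adjusted p = 4.61e-06), or 0.407-fold, and passed in all 12 alternatives (-1.53 to -1.21). *Ccng1*, whose highest sgCebpa/b/d library (8.87) was below its lowest sgLkb1 library (8.95), had -0.64 (SE 0.13 and edgeR adjusted p = 0.00417). *Mdm2*, at 7.34 to 7.62 against 7.80 to 7.99 log2 CPM, had -0.46 (SE 0.10 and edgeR adjusted p = 0.00572). *Mdm2* passed here although it had passed against sgInert in neither group. *Phlda3*, at -1.03 to 0.85 against 0.92 to 2.24 log2 CPM, had -1.62 (SE 0.47 and edgeR adjusted p = 0.0418). It entered the test through the sgInert and sgLkb1 libraries, where it was higher, so its call and its lack of overlap are not independent of the count filter. Among MT-numbered libraries *Cdkn1a* (-1.45, edgeR adjusted p = 1.19e-05) and *Mdm2* (-0.50, edgeR adjusted p = 0.0177) passed, while *Ccng1* (-0.51, edgeR adjusted p = 0.0800) and *Phlda3* (-1.37, edgeR adjusted p = 0.197) did not. Without the unnumbered libraries only *Cdkn1a* of the 10 passed. The *Phlda3* call was also lost on leaving out any sgCebpa/b/d library but replicate 3, or any sgLkb1 library but replicate 2, with adjusted p reaching 0.139.

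**Figure D3:**
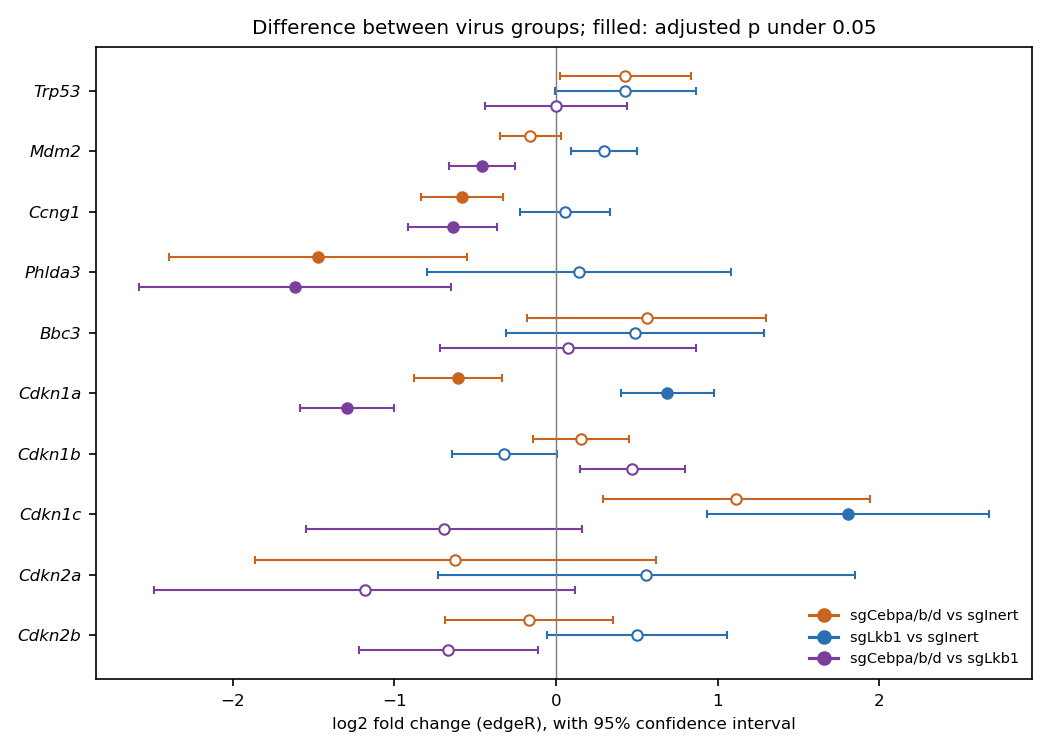
Log2 fold change of the 10 genes in the 3 comparisons between virus groups, with 95% confidence intervals as bars and filled points where the edgeR adjusted p is under 0.05. *Cdkn1a* is filled in all 3, at -0.61, 0.69 and -1.30, with opposite signs in sgCebpa/b/d and sgLkb1 against sgInert, and *Trp53* and *Bbc3* in none.

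The CDK inhibitors that did not pass in this comparison were *Cdkn2b* (-0.67, edgeR adjusted p = 0.170), *Cdkn2a* (-1.18, edgeR adjusted p = 0.332), *Cdkn1c* (-0.69, edgeR adjusted p = 0.401) and *Cdkn1b* (0.47, edgeR adjusted p = 0.0848). Among MT-numbered libraries *Cdkn2a* (-2.28, edgeR adjusted p = 0.0483) and *Cdkn2b* (-0.83, edgeR adjusted p = 0.0459) passed. For *Cdkn2a* this rests on 1, 8, 3 and 3 counts in the MT-numbered sgCebpa/b/d libraries and 11, 20 and 39 in the MT-numbered sgLkb1 libraries. *Trp53* (0.00, 95% confidence interval -0.44 to 0.44) and *Bbc3* (0.07, 95% confidence interval -0.72 to 0.87) were close to equal in the fitted values.

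Of 28 other p53 target genes, 27 were tested, and few passed. In sgCebpa/b/d against sgInert 1 rose and 2 fell, with a list median of -0.21. *Btg2*, an antiproliferative gene, rose (log2 fold change 1.00, edgeR adjusted p = 0.00893), and *Zmat3*, which encodes an RNA-binding protein (-0.62, edgeR adjusted p = 0.00396), and *Cd82*, a metastasis suppressor (-0.85, edgeR adjusted p = 0.0470), fell. In sgLkb1 against sgInert 0 rose and *Cd82* alone fell (-1.02, edgeR adjusted p = 0.0456), while the list median was 0.14. Between sgCebpa/b/d and sgLkb1 *Zmat3* (-0.80, edgeR adjusted p = 0.00144) and *Bax*, the pro-apoptotic effector (-0.85, edgeR adjusted p = 0.0401), were lower, both without overlap, and the median was -0.33, with 20 of 27 values negative. In this fit of all libraries the shares, 3, 1 and 2 of 27, are near or below the background of 10.1%, 5.78% and 5.96%. Without the unnumbered libraries *Gadd45a* and *Perp* passed in sgCebpa/b/d against sgInert in place of these, none passed in sgLkb1 against sgInert, and *Zmat3*, *Perp* and *Gadd45a* passed between sgCebpa/b/d and sgLkb1. Among MT-numbered libraries *Plk2*, *Gadd45a* and *Perp* passed in the first comparison, *Sesn2* and *Plk2* in the second, and *Perp*, *Gadd45a*, *Sesn2*, *Zmat3* and *Trp53inp1* in the third. Over all genes, 881, 525 and 455 of 14080 passed without the unnumbered libraries, and 1169, 953 and 954 of 13674 among MT-numbered ones. These genes did not all go the same way: in the fit of all libraries *Gadd45a* had -0.74 and *Perp* 0.31 in sgCebpa/b/d against sgInert. Leaving out each library in turn kept the *Cd82* calls in 6 of 19 fits (sgCebpa/b/d) and 5 of 19 (sgLkb1) and the *Bax* call in 9 of 19.

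**Figure D4:**
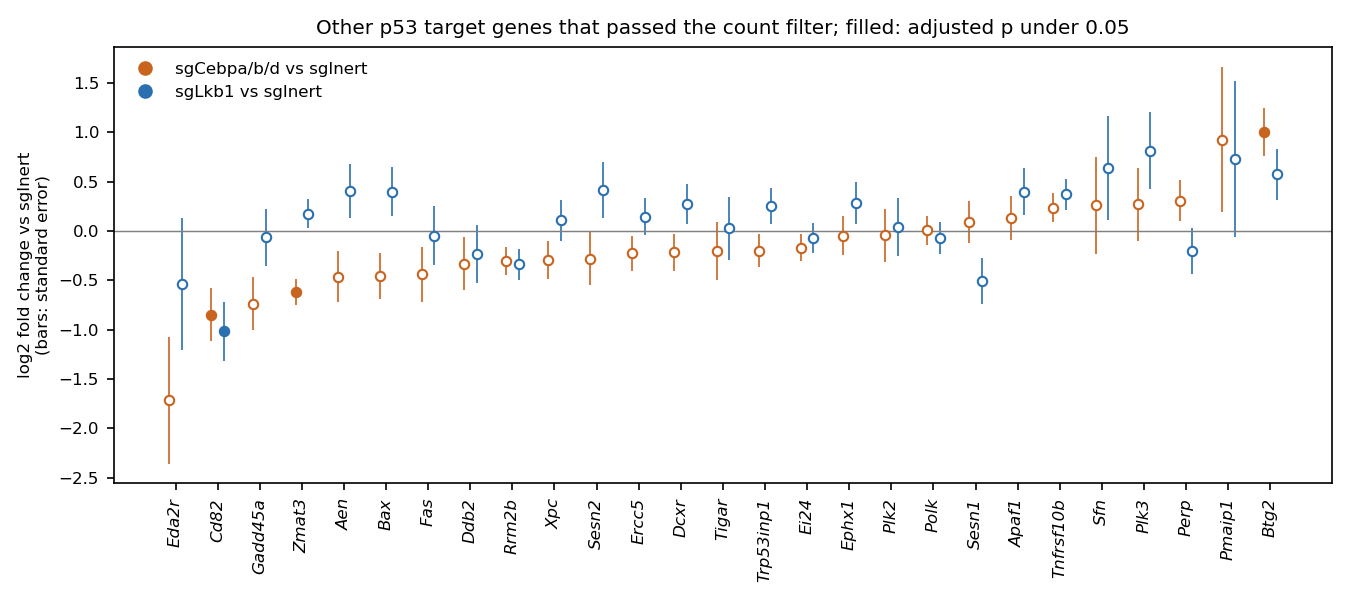
Log2 fold change against sgInert of the 27 other p53 target genes tested, in sgCebpa/b/d and in sgLkb1, with standard errors as bars and filled points where the edgeR adjusted p is under 0.05. Filled are *Btg2*, *Zmat3* and *Cd82* in sgCebpa/b/d and *Cd82* in sgLkb1, and 18 of 27 values are below 0 in the first and 10 of 27 in the second.

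Of 14 p53 regulators and family members, such as the kinases *Atm* and *Chek2* and the MDM2 relative *Mdm4*, 12 were tested. In edgeR 0 passed in each of the 3 comparisons, with 2, 2 and 4 at an unadjusted p under 0.05, and 0 passed in DESeq2. Of all 13986 genes, 3251, 2589 and 2557 had an unadjusted edgeR p under 0.05. Without the unnumbered libraries *Chek1* passed as higher in sgCebpa/b/d than in sgInert, and in the third comparison *Mdm4* passed as higher in DESeq2 with gene lengths and *Chek1* with sex as a covariate. With limma on TPM *Atr* passed as higher in sgLkb1 than in sgInert. Of 9 genes known to regulate the Ink4/Arf locus, *Myc* (-0.91, edgeR adjusted p = 0.00716) and the Polycomb gene *Bmi1* (-0.33, edgeR adjusted p = 0.0392) fell and *Ets1* (1.02, edgeR adjusted p = 0.0137) rose in sgCebpa/b/d against sgInert. In sgLkb1 *Ets1* rose (1.31, edgeR adjusted p = 0.00617) and *Myc* fell (-0.96, edgeR adjusted p = 0.0177), each set against the same controls. *Bmi1* was lower in sgCebpa/b/d libraries than in those of sgLkb1 (-0.39, edgeR adjusted p = 0.0351). Of all genes 10.1%, 5.78% and 5.96% passed in the 3 comparisons. The *Ets1* value in sgCebpa/b/d against sgInert ranged from 0.33 to 1.17 over 12 alternatives and passed in 8. Without the unnumbered libraries only *Myc* in sgCebpa/b/d and *Ets1* in sgLkb1 of these 9 genes passed against sgInert, and 0 passed between sgCebpa/b/d and sgLkb1.

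Among 16 CDK, cyclin and RB genes, *Cdkn2c*, which encodes the INK4 inhibitor p18, separated the groups in the comparison of sgCebpa/b/d with sgLkb1, with the higher level in sgCebpa/b/d. Its lowest, median and highest levels were 2.80, 3.81 and 4.39 log2 CPM in sgInert, 4.04, 4.58 and 4.82 with sgCebpa/b/d, and 2.68, 2.95 and 3.19 with sgLkb1. It rose in sgCebpa/b/d (log2 fold change 0.83, edgeR adjusted p = 0.00941) and fell in sgLkb1 (-0.78, edgeR adjusted p = 0.0455). Between sgCebpa/b/d and sgLkb1 the groups did not overlap (1.61, edgeR adjusted p = 1.17e-04), and this difference passed in all 12 alternatives, whereas without the unnumbered libraries *Cdkn2c* passed against sgInert in neither group. The call in sgLkb1 against sgInert was kept in 7 of 12 alternatives and in 4 of 19 fits that each left out 1 library. *Ccnd2*, encoding cyclin D2, was higher in sgLkb1 than in sgInert (1.96, edgeR adjusted p = 0.0239) and than in sgCebpa/b/d libraries (log2 fold change of sgCebpa/b/d against sgLkb1 -1.94, edgeR adjusted p = 0.0234). The other 14 genes of this list did not pass in any of the 3 comparisons, where 10.1%, 5.78% and 5.96% of all genes passed.

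Of 13 proliferation markers 0 passed in edgeR in each comparison, with 1, 1 and 5 at an unadjusted p under 0.05, and 0 passed in DESeq2. Of all 13986 genes, 3251, 2589 and 2557 had an unadjusted edgeR p under 0.05. Against sgInert the list median was 0.62 on the log2 scale for sgCebpa/b/d (0.02 over all genes) and -0.23 for sgLkb1 (-0.01 over all genes). All 13 were higher in sgCebpa/b/d than in sgLkb1 (median 0.78, against 0.03 over all genes). Among MT-numbered libraries 6 of them passed as higher in sgCebpa/b/d than in sgLkb1, 4 passed as lower in sgLkb1 than in sgInert, and 1 passed in each direction in sgCebpa/b/d against sgInert. Over all 13674 genes tested in those libraries, 503 passed as higher in the first of these comparisons, 459 as lower in the second, and 588 as higher and 581 as lower in the third. Their summed level was 542 to 900 CPM in MT-numbered and 212 to 318 CPM in unnumbered sgCebpa/b/d libraries, against 278 to 303 CPM in MT-numbered and 259 and 417 CPM in unnumbered sgLkb1 libraries. In sgInert libraries it was 341 to 742 CPM in MT-numbered and 113 to 306 CPM in ZR-numbered ones, so that the level moved with the title series, whose part was not tested. *Trp53* had a Pearson correlation of 0.58 with this sum over the 19 libraries after centering on the group means, and *Cdkn1b* one of -0.51.

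The members varied largely on their own within groups. After centering log2 CPM on the group means, the 45 pairs of members had a median Pearson correlation of 0.04 over the 19 libraries. The highest were *Cdkn1a* with *Cdkn2a* (0.70) and *Trp53* with *Cdkn2b* (0.60), and the lowest was *Cdkn1c* with *Phlda3* (-0.50). The pairs among *Cdkn1a*, *Mdm2* and *Ccng1*, the most abundant members, had 0.31 (*Cdkn1a* and *Mdm2*), 0.23 (*Mdm2* and *Ccng1*) and -0.14 (*Cdkn1a* and *Ccng1*). Of 10622 expressed genes, the ones most like *Cdkn1a* by the same measure were *Plin2* (0.84) and *Txnip* (0.82), those most like *Ccng1* were *Fgd4* (0.83) and *Sympk* (0.76), and those most like *Mdm2* were *Gm45871* (0.86) and *Tomm34* (0.78). For *Cdkn1c* they were *5430416N02Rik* (0.80) and *Ttc3* (0.77), and for *Phlda3* *Mkrn1* (0.82) and *Zfp59* (0.80). These are the extremes of a search over all genes, in libraries some of which may share an animal and which differ in depth.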

How the data were processed

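Total RNA of sorted neoplastic cells was made into libraries with the Trio RNA-Seq kit and sequenced as paired reads of 75 bases. Per the labels and the study's methods, the authors used STAR 2.6.1d for alignment (build mm10) and RSEM 1.2.30 for quantification. Expected counts, as deposited, are raw RSEM estimates, and TPM, as deposited, scale them by length and depth. The authors' DESeq2 1.26.0 results (fold changes and p-values) and their normalized counts were deposited too and were not used here. Coordinates come from GENCODE M21 (GRCm38, the build of the files), in which every transcript of the 10 genes was found, and promoter windows from RefSeq (GRCm38.p6), which matched 9 of 10 members.

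Groups came from the labels. One further allele that all groups share is not reported here. The 10 genes, the gene lists and the rule for named genes (all members, list genes that passed and the 2 genes most like each member that passed) were chosen with earlier results of these data known. Expected counts were rounded, filtered with filterByExpr (settings 10 per library and 15 in total), scaled by TMM and tested (two-sided) with edgeR 4.0.16's quasi-likelihood test in R 4.3.3, fitted once to the 3 groups (19 libraries, no covariate). Benjamini-Hochberg adjustment was over the 13986 genes tested. Log2 CPM used a prior count of 2. Standard errors were taken from the log2 fold change and its F statistic. Alternatives used RLE factors, no filter, DESeq2 1.42.0 with or without RSEM's gene lengths, limma 3.58.1 on log2(TPM + 1), covariates (sex, title series, replicate number) and other sets of libraries. The settings were applied to the lists after seeing the data. The procedure was tested on simulated counts. No pair of the 52 within groups differed by less than the sampling noise (chi-square per gene 7.34 to 76.8). Total counts of 2760722 to 9944131 limit mainly *Cdkn2a*, *Phlda3* and *Bbc3*. The counts give counting error only.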

Additional observations from a re-analysis of the deposited data

Results flagged for a closer look

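In 3 of the 30 sets of a gene and a virus group, 1 library lay far from the others, which chance gives in about 1 of 20 sets. *Trp53* had 3.63 log2 CPM in sgCebpa/b/d replicate 7, an unnumbered library, against 4.20 or more in the other 6. *Cdkn2a* had 0 counts (-1.63 log2 CPM) in sgInert replicate 6. *Bbc3* had 0.33 log2 CPM in sgInert replicate 4, where it had 4 counts.

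The effects of sgCebpa/b/d and sgLkb1 against sgInert differed for 4 members by the direct test of the difference between the groups. The differences were -1.30 for *Cdkn1a*, -0.64 for *Ccng1*, -0.46 for *Mdm2* and -1.62 for *Phlda3* (log2 scale, edgeR adjusted p = 4.61e-06, 0.00417, 0.00572 and 0.0418), with every sgCebpa/b/d library below every sgLkb1 library. The *Cdkn1a* difference passed in all 12 alternatives, that of *Mdm2* in 11, that of *Ccng1* in 10 and that of *Phlda3* in 4. *Phlda3* had entered the test through the sgInert and sgLkb1 libraries, so its call is not independent of the count filter.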

How the results depend on the processing

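Of the 36 counts of members under the 12 alternatives, 29 stayed close to the count in the report. A count does not tell which members passed. In sgCebpa/b/d against sgLkb1 among MT-numbered libraries it stayed at 4, while *Cdkn2a* and *Cdkn2b* took the place of *Ccng1* and *Phlda3*. In sgCebpa/b/d against sgInert, 3 members became 0 with the title series as a covariate, 1 among MT-numbered libraries and 1 without the unnumbered libraries. In sgLkb1 against sgInert, 2 became 1 under each of these 3 settings. In sgCebpa/b/d against sgLkb1, 4 became 1 without the unnumbered libraries. Leaving out each library gave 2 to 4, 2 to 3 and 3 to 4 members. The cause of these moves was not tested. The fits among MT-numbered libraries and without the unnumbered ones also hold fewer libraries. The counts over all genes (1412, 809 and 833) became 926 with the title series and 881 without the unnumbered libraries in the first comparison, 1258 with sex, 525 without the unnumbered libraries and 532 with libraries sharing a number summed in the second, and 455 and 466 under the last 2 settings in the third. With limma on TPM the median over all genes was 0.18 in sgLkb1 against sgInert (-0.01 in edgeR) and -0.15 in sgCebpa/b/d against sgLkb1 (0.03 in edgeR), and the split of calls became 714 higher to 139 lower (393 to 416 in edgeR) and 151 to 748 (396 to 437), so that values under that setting are to be read against those medians.

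Values that changed sign had not passed in the report either. *Bbc3* in sgCebpa/b/d against sgInert was -0.10 among MT-numbered libraries. In sgLkb1 against sgInert, *Phlda3* was -0.11 in DESeq2 with gene lengths and -0.023 with sex, and *Ccng1* was -0.0018 without the unnumbered libraries. In sgCebpa/b/d against sgLkb1, *Trp53* was -0.0044 with RLE factors, -0.024 without a filter, -0.0070 in DESeq2, -0.039 with gene lengths, -0.18 in limma, -0.0089 with the title series, -0.12 with libraries sharing a number summed and -0.012 in the fit of 2 groups, and *Bbc3* was -0.031 in limma, -0.16 with sex, -0.0019 with the replicate block, -0.52 among MT-numbered and -0.52 without the unnumbered libraries. Leaving out each library in turn gave -0.31 to 0.045 for *Cdkn2b* in sgCebpa/b/d against sgInert, -0.021 to 0.13 for *Ccng1* and -0.061 to 0.36 for *Phlda3* in sgLkb1 against sgInert, and -0.13 to 0.13 for *Trp53* and -0.17 to 0.29 for *Bbc3* in sgCebpa/b/d against sgLkb1.

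The replicate numbers do not pair the libraries: of 17 pairs with the same number, 2 had a correlation of their deviations above 0.1 (range -0.147 to 0.232). With the replicate number as a block, 3, 2 and 3 members passed (*Phlda3* against sgLkb1 lost its call, adjusted p = 0.0551), and 1293, 873 and 661 of all genes. In the fit of 2 groups *Cdkn2a* and *Phlda3* were removed by the filter in sgCebpa/b/d against sgInert and have no value there.

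The *Cdkn1c* call in sgCebpa/b/d against sgInert was gained without sgInert replicate 1 or sgCebpa/b/d replicate 2 or 3, the *Mdm2* call in sgLkb1 against sgInert without sgInert replicate 7 and the *Cdkn1b* call in sgCebpa/b/d against sgLkb1 without sgCebpa/b/d replicate 2.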
